A study of Mus musculus with 6 samples.

Results

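The steroid-metabolising enzymes described here are 10 mouse genes, namely the 17β-hydroxysteroid dehydrogenases Hsd17b6, Hsd17b2 and Hsd17b13, the 3β-hydroxysteroid dehydrogenases Hsd3b2, Hsd3b3 and Hsd3b5, the 11β-hydroxysteroid dehydrogenase Hsd11b1, the steroid 5α-reductases Srd5a1 and Srd5a2, and the aldo-keto reductase Akr1c6. They were found by gene symbol, through the RefSeq accession that the array files give for each probe. This gave 12 probes among 55681, since Hsd3b2 and Hsd17b13 have 2 probes each. All 12 passed the filter on dim probes and were well above background in both colours on all 6 arrays. The genes were chosen by family with their log2 ratios between Fra-1hep and wild-type liver in these samples already known, so those ratios are given as a description and no test of them is reported.

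Liver RNA of Fra-1hep mice, which overexpress the AP-1 transcription factor subunit Fra-1 in hepatocytes only, was compared with that of wild-type mice (wt) on Agilent 2-colour arrays. Both groups were C57BL/6J, aged 26 to 28 weeks, housed under standard conditions and untreated. Each of 5 arrays compared RNA of 1 Fra-1hep mouse, in Cy5, with a pool of 5 chow-fed wild-type mice, in Cy3. The sixth array carried pools of both genotypes with the dyes exchanged. The ratio of the sixth array was turned, so that every value below is log2 of Fra-1hep over wild type. The promoter that drives Fra-1, the sex of the mice and the make-up of the Fra-1hep pool are not given in the sources used here. The probe of Fosl1, the gene of Fra-1, was clearly above background on 0 of 6 arrays in both colours, with log2 ratios from -0.18 to 0.074, so it does not check the labels. Wild type is 1 pool, and the spread between wild-type mice is therefore not part of any value.

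Detected probes, meaning those well above background, made up 48.5 to 58.9% of an array for Fra-1hep RNA and 45.0 to 50.7% for wild-type RNA, and 0 spots were saturated. The arrays of mice 2 and 3 differed by 0.899 times the noise expected from replicate spots, against 1.52 to 1.91 times for the other pairs of mice. They were averaged and counted as 1 sample, which leaves n = 4 Fra-1hep samples. Precision is limited by having so few arrays. All 10 hepatocyte markers looked at, among them Alb, Ttr and Cps1, were detected in both colours on every array. Because whole liver was measured, fewer cells of a type and less RNA per cell cannot be told apart.

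Steroid hormones reach the liver from the adrenal gland and the gonads and are activated, inactivated and made soluble there. Hydroxysteroid dehydrogenases switch a position of the steroid ring between an alcohol and a ketone, which can turn a hormone on or off, and 5α-reductases saturate a double bond of the ring. Several of these genes differ in level between male and female mouse liver, and Hsd3b5 is known as a male-specific one.

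Promoters of 5 of the genes are shown because the results turn on them: Hsd17b6 and Hsd3b5 had the lowest ratios, Hsd3b3 is a neighbour and close relative of Hsd3b5 whose ratio lay near 0, and Srd5a1 and Srd5a2 lay on opposite sides of 0. The sequences are the 250 bases before the annotated start of each gene, 5′ to 3′ along the gene, from RefSeq on GRCm38.p6. All 5 genes lie on the minus strand. The capitals mark a CCAAT box (CCAAT, or ATTGG where it runs on the other strand) and a GC box (GGGCGG, or CCGCCC).
Hsd17b6 (chr10:128007612-128007861): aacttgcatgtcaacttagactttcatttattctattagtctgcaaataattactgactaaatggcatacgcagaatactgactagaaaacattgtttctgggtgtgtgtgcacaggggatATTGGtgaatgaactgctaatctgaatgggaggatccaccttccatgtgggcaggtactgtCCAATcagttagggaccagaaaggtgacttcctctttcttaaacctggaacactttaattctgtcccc
Hsd3b5 (chr3:98645535-98645784): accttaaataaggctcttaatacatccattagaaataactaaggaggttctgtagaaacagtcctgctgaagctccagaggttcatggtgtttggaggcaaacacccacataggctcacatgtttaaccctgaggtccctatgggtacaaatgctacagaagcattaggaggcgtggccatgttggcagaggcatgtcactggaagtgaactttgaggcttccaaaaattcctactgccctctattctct
Hsd3b3 (chr3:98763129-98763378): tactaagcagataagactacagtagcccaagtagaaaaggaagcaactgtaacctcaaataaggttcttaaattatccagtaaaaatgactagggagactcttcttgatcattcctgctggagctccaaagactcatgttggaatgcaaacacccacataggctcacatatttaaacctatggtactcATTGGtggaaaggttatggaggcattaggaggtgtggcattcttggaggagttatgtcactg
Srd5a1 (chr13:69611464-69611713): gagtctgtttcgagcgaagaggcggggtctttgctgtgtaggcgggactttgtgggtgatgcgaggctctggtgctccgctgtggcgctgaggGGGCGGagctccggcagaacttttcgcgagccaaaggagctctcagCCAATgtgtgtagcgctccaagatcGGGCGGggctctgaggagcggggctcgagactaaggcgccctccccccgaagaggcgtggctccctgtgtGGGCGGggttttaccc
Srd5a2 (chr17:74047861-74048110): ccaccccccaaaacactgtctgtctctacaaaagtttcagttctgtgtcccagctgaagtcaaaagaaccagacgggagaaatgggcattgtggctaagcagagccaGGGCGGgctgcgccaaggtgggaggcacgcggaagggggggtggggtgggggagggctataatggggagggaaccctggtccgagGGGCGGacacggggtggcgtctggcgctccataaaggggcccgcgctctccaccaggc
The table of promoters matched 9 of the 10 genes. Hsd17b6 and Hsd3b3 each have a further annotated start, which is not shown. Both 5α-reductase promoters were rich in G and C (64.8% for Srd5a1 and 63.2% for Srd5a2), and they were the only members with a GC box, which 32.7% of 32851 promoter windows of this length hold. In the other members shown G and C made up 41.2% (Hsd17b6), 45.2% (Hsd3b5) and 41.2% (Hsd3b3). A CCAAT box was found in Hsd17b6, Hsd3b3, Srd5a1, Hsd11b1 and Akr1c6, that is 5 of 9 genes, and in 33.8% of all windows. When Hsd3b3 and Hsd3b5 were aligned, 151 bases were identical and 48 mismatched, with 102 bases in gaps, so that 75.9% of the aligned bases were identical. The last bases of the Hsd3b3 window match a stretch well inside the Hsd3b5 window, so the windows are shifted against each other. The other pairs among Hsd3b2, Hsd3b3, Hsd3b5 and Hsd3b6 had 59.4 to 65.0%. These percentages leave out bases in gaps, and no value for unrelated promoters stands beside them. Searched on both strands, none of the 9 genes' windows held the AP-1 motif TGANTCA (6.75% of all windows), the STAT5 motif TTCNNNGAA (7.02%), the C/EBP motif TTGCNNAA (9.56%) or the glucocorticoid receptor motif (0.387%). A missing match says only that these letters are not in this window.

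Of the 12 probes, 7 were below 0 on all 6 arrays (12.2% of all 30105 probes tested), 1 was above 0 on all 6 (13.3% of all probes) and 4 had mixed signs. The median log2 ratio of the 12 was -0.41, beside 0.01 for all probes tested. Nothing is read from these counts, since this contrast was known when the genes were proposed. For the genes that are not among the 10, a call below is an adjusted p under 0.05 in limma's fit, with Benjamini-Hochberg adjustment over all probes. Of all probes tested 11.6% passed, with 6.05% lower and 5.52% higher.

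**Figure D1:**
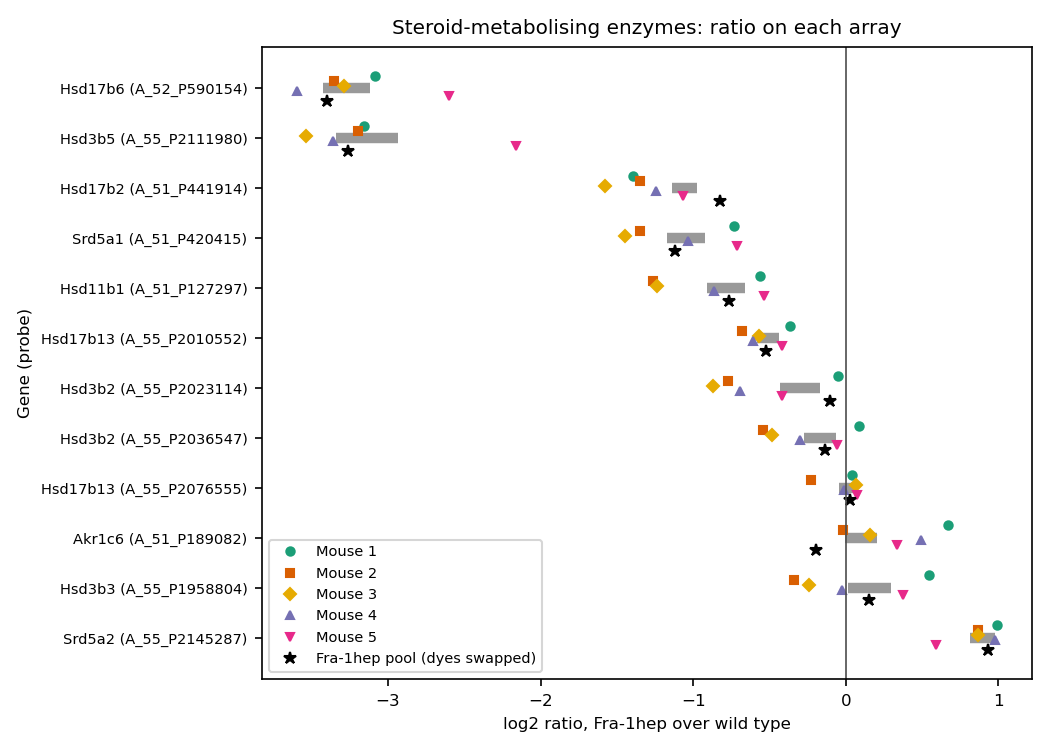
Log2 ratio of Fra-1hep over wild type (horizontal) for the 12 probes of the 10 genes (vertical), with 1 symbol per array and a grey bar for the fitted estimate ± its standard error (SE). Hsd17b6 and Hsd3b5 lie far to the left on every array, with mouse 5 the highest for both. Srd5a2 is the only probe to the right of 0 on every array. The symbols of mice 1 and 5 lie to the right of those of mice 2 and 3 for most probes.

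Hsd17b6 had the lowest ratio of the 10 genes. It encodes an enzyme of the retinol dehydrogenase family that oxidises androgens such as androstanediol. Its probe (A_52_P590154, NM_013786) gave log2 ratios of -3.09, -3.36, -3.29, -3.60 and -2.60 in mice 1 to 5 and -3.40 on the dye-swapped array. All 6 values were far below 0, with mouse 5 the highest and mouse 4 the lowest. The mice averaged -3.15 ± 0.42 (SD, n = 4), and the fitted estimate was -3.27 (SE 0.15), or 9.68-fold lower, while Agilent's processed signals gave a lower estimate of -3.93 (SE 0.28). On the scale of normalised log2 signal, the wild-type channel read 10.40 to 10.80 over 6 arrays and the Fra-1hep channel 6.96 to 8.0, so the channels were separated by 2.40 at the nearest values. The lowest Fra-1hep value was not far above the 6.09 that the undetected Fosl1 probe averaged in Fra-1hep liver. The mean ratio was -3.22 on slide 1, -3.43 on slide 2 and -2.60 on slide 3, which held only mouse 5.

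Hsd17b2 encodes the enzyme that oxidises oestradiol and testosterone to their weaker keto forms. Its log2 ratios (A_51_P441914, NM_008290) were -1.39, -1.35, -1.58, -1.24 and -1.07 in mice 1 to 5 and -0.83 on the dye-swapped array. Every array showed the gene lower, but the dye-swapped value lay outside the range of the mice, 0.47 above their mean. The mice averaged -1.29 ± 0.17 (SD, n = 4), against a fitted estimate of -1.06 (SE 0.08), which gives the dye-swapped array the same weight as the mice together and corresponds to 2.08-fold lower. Wild-type signal of 12.39 to 12.70 and Fra-1hep signal of 11.12 to 11.56 (normalised log2) did not overlap.

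Hsd17b13, a hepatocyte protein that coats lipid droplets and has retinol dehydrogenase activity, was lower by a smaller amount and by 1 of its 2 probes only. The bright probe (A_55_P2010552, NM_001163486) read -0.36, -0.68, -0.57, -0.61 and -0.42 in mice 1 to 5 and -0.52 on the dye-swapped array. All 6 values lay below 0 within a narrow range. The mice averaged -0.50 ± 0.13 (SD, n = 4), with a fitted estimate of -0.51 (SE 0.07), or 1.43-fold lower. The second probe (A_55_P2076555, NM_198030) lay between -0.23 and 0.071, with an estimate of 0.017 (SE 0.061), and its normalised log2 signal was 6.63 to 6.90 in wild type. That is little above the 6.14 that the undetected Fosl1 probe averaged there, while the bright probe read 13.15 to 13.40. The probes therefore do not carry equal weight. The probes name different RefSeq accessions of the gene, and which transcripts each binds was not tested.

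The 3β-hydroxysteroid dehydrogenases ran from -3.14 to 0.15 in fitted log2 ratio. Mouse Hsd3b5 is a liver enzyme that reduces 3-ketosteroids, while Hsd3b2 and Hsd3b3 turn precursors such as pregnenolone and dehydroepiandrosterone into the ketosteroids from which the active hormones derive. The Hsd3b5 probe (A_55_P2111980, NM_008295) gave log2 ratios of -3.16, -3.20, -3.54, -3.36 and -2.16 in mice 1 to 5 and -3.26 on the dye-swapped array. All 6 arrays showed it far lower, with mouse 5 the highest and the others between -3.54 and -3.16. The mice averaged -3.01 ± 0.58 (SD, n = 4), the fitted estimate was -3.14 (SE 0.20), or 8.79-fold lower, and without mouse 5 it was -3.28. Normalised log2 signal was 13.56 to 13.73 in wild type and 10.18 to 11.52 in Fra-1hep liver. By slide the mean ratio was -3.18 on slide 1, -3.39 on slide 2 and -2.16 on slide 3.

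Hsd3b3, which lies next but one to Hsd3b5 in the genome, had no common direction. Its log2 ratios (A_55_P1958804, NM_001161742) were 0.55, -0.34, -0.24, -0.024 and 0.37 in mice 1 to 5 and 0.15 on the dye-swapped array. Mice 1 and 5 lay above 0, mice 2, 3 and 4 below. The mice averaged 0.15 ± 0.38 (SD, n = 4), so the estimate of 0.15 (SE 0.14) is smaller than their spread. Hsd3b2 lay between the other genes of its family. Its first probe (A_55_P2023114, NM_153193) read -0.049, -0.77, -0.87, -0.69 and -0.42 in mice 1 to 5 and -0.10 on the dye-swapped array, which gives a fitted estimate of -0.30 (SE 0.13). The second probe (A_55_P2036547) had values nearer to 0, from -0.54 in mouse 2 to 0.086 in mouse 1 and an estimate of -0.17 (SE 0.11). The mouse means were -0.50 ± 0.34 and -0.20 ± 0.26 (SD, n = 4), so that the second was smaller than the spread between mice. These genes are close relatives, and cross-hybridisation between their probes was not tested.

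Hsd11b1 regenerates active corticosterone from its keto form and is abundant in hepatocytes. Its probe (A_51_P127297, NM_008288) was printed on 10 spots of each array, of which 6 to 10 were usable. The log2 ratio was -0.57, -1.26, -1.24, -0.86 and -0.53 in mice 1 to 5 and -0.77 on the dye-swapped array. Mice 2 and 3 were the lowest and mice 1 and 5 the highest, and all 6 arrays lay below 0. Spots of 1 array differed with an SD of only 0.033 to 0.092, beside an SD of 0.33 between the mice (mean -0.80, n = 4). The spread between spots leaves out differences in labelling and hybridisation between arrays. The fitted estimate was -0.78 (SE 0.13), or 1.72-fold lower. Normalised log2 signal was 14.68 to 14.96 in wild type and 13.70 to 14.36 in Fra-1hep liver, with no overlap.

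**Figure D2:**
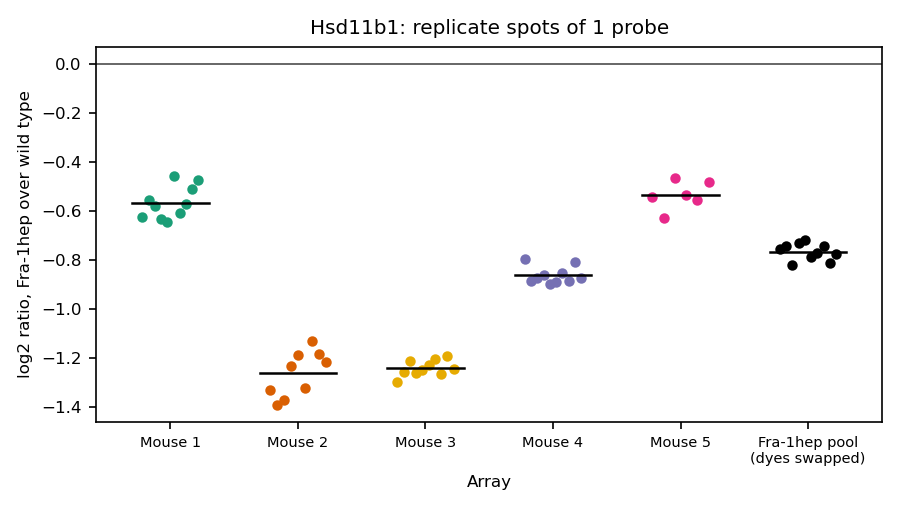
Log2 ratio of Fra-1hep over wild type (vertical) for each usable spot of the Hsd11b1 probe, by array (horizontal), with a line at each array's mean. The spots of an array lie close together, mice 2 and 3 lie near -1.25 and mice 1 and 5 near -0.55.

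The 5α-reductases turn testosterone into dihydrotestosterone and begin the breakdown of glucocorticoids. Srd5a1, the form known from liver, had log2 ratios (A_51_P420415, NM_175283) of -0.73, -1.35, -1.45, -1.04 and -0.71 in mice 1 to 5 and -1.12 on the dye-swapped array. It was lower on every array and lowest in mice 2 and 3. The mice averaged -0.97 ± 0.32 (SD, n = 4), and the fitted estimate was -1.05 (SE 0.12), or 2.06-fold lower. Srd5a2, the form known from the male reproductive tract, was higher on every array. Its log2 ratios (A_55_P2145287, NM_053188) were 0.99, 0.87, 0.87, 0.97 and 0.59 in mice 1 to 5 and 0.93 on the dye-swapped array. Mouse 5 was the lowest, and the others lay within 0.13 of each other. The mice averaged 0.86 ± 0.18 (SD, n = 4), and the estimate was 0.89 (SE 0.08), or 1.86-fold higher. Normalised log2 signal was 6.96 to 7.15 in wild type and 7.62 to 8.12 in Fra-1hep liver, with no overlap. The undetected Fosl1 probe averaged 6.14 in wild type, so Srd5a2 was dim there. The size of the difference depends on how background is removed, since Agilent's processed signals gave an estimate of 1.53. No other member was above 0 on all 6 arrays.

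Akr1c6, an abundant liver enzyme that oxidises oestradiol, had no settled direction. Its log2 ratios (A_51_P189082, NM_030611) were 0.67, -0.016, 0.16, 0.49 and 0.33 in mice 1 to 5 and -0.19 on the dye-swapped array. The mice averaged 0.39 ± 0.25 (SD, n = 4), while the dye-swapped array lay on the other side of 0 and outside their range. The fitted estimate, which corrects for dye, was 0.10 (SE 0.10), and with the mouse arrays alone it was 0.39. Normalised log2 signal overlapped, with 16.09 to 16.59 in wild type and 16.39 to 16.98 in Fra-1hep liver.

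**Figure D3:**
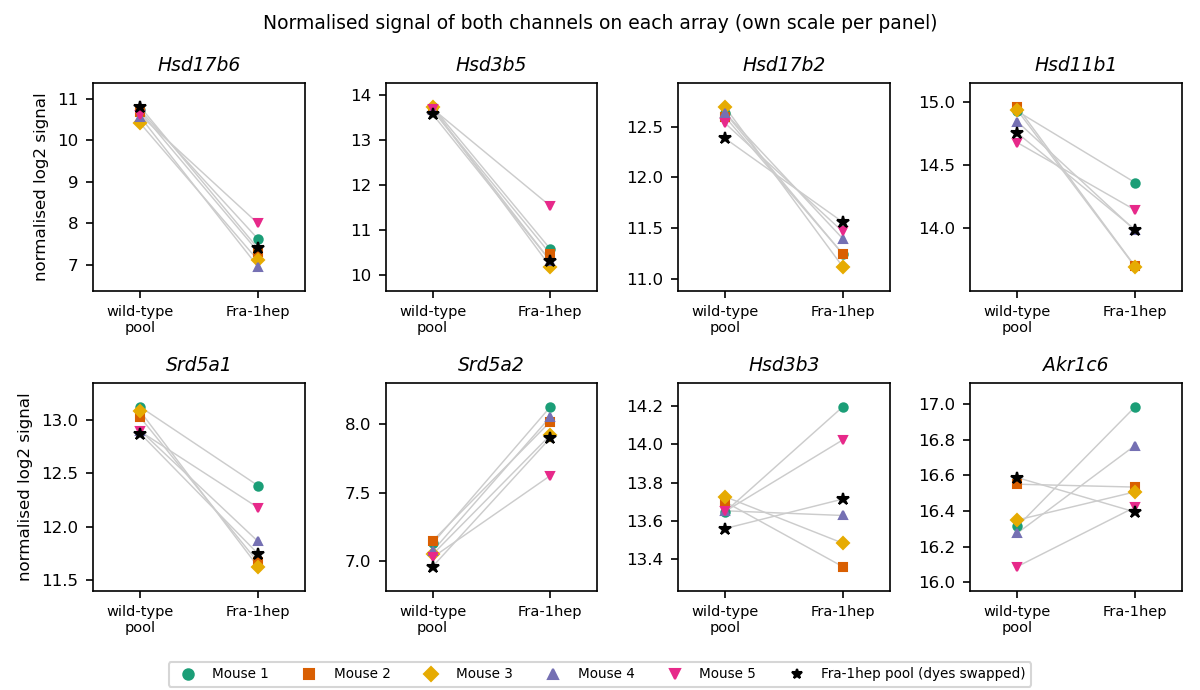
Normalised log2 signal (vertical, own scale in each panel) of the wild-type pool and of Fra-1hep liver on each of the 6 arrays for 8 of the genes, with a line joining the channels of an array. The groups are separate for Hsd17b6, Hsd3b5, Hsd17b2, Hsd11b1, Srd5a1 and Srd5a2 and overlap for Hsd3b3 and Akr1c6.

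Over the 12 probes, the levels of the groups did not overlap for 8 and overlapped for 4, beside 11.1% of all probes tested with no overlap. The repeated readings of the wild-type pool are technical, so this separation does not include differences between wild-type mice. Among the Fra-1hep mice, the lowest ratio came from mouse 2 or 3, which count as 1 sample, for 10 of the 12 probes and for 37.3% of all probes tested. The highest came from mouse 1 or 5 for all 12 and for 44.9% of all probes tested. The order was not the same for every gene, since Hsd17b6 was lowest in mouse 4 and Srd5a2 in mouse 5, and mouse 1 was the second lowest for Hsd17b2. The dye-swapped pool lay inside the range of the mice for 10 probes, the exceptions being Hsd17b2 and Akr1c6. Between mice the SD ranged from 0.067 for the second Hsd17b13 probe to 0.58 for Hsd3b5, beside a median of 0.12 over all probes tested.

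Neutrophil markers differed between the same mice. All 7 on the array rose (adjusted p at most 0.033, limma), and their median log2 ratio was 1.90 and 1.45 in mice 1 and 5, 3.74, 3.77 and 4.27 in mice 2, 3 and 4, and 3.63 on the dye-swapped array. Their summed signal was 12607 to 59838 in Fra-1hep liver, beside 3277 to 3637 in wild type. Macrophage markers fell for 6 of 7 and endothelial markers for 5 of 7 that were tested, cholangiocyte markers rose for 2 of 6, and of 7 stellate cell markers 1 rose (Pdgfrb) and 1 fell (Acta2). With Agilent's processed signals 5 of the 7 neutrophil calls, 1 of the 6 macrophage calls and 0 of the 5 endothelial calls remained. Of 10 hepatocyte markers 0 rose and 2 fell (Alb, log2 -0.65, and Apoa1, log2 -0.34). Apoa1 did not pass with processed signals or with median centring (adjusted p = 0.101 and 0.266, limma), while Alb passed with both. Apoa2, Ttr, Trf and Serpina1c did not pass, and were above 0 in every mouse but below 0 on the dye-swapped array. Alb was at -1.08 on the dye-swapped array, while the mice averaged -0.21 ± 0.25 (SD, n = 4) with mouse 4 above 0. The 10 markers' summed signal of 609168 to 879958 in Fra-1hep liver overlapped that of 667796 to 915839 in wild type. The part of cell composition in the members' ratios was not tested.

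Markers of the adrenal cortex and gonads, which make steroids from cholesterol, were looked at because traces of these organs would carry several of the enzymes. Of 9 such genes on the array 6 were well above background on no array, among them the side-chain cleavage enzyme Cyp11a1 and the hydroxylases Cyp11b1 and Cyp11b2. Of 3 tested, Cyp21a1 rose (log2 1.14, SE 0.09, adjusted p = 0.000263, limma), with 0.33 by its second probe, and Star and Nr5a1 did not pass. The list's summed signal was 2927 to 4677 in Fra-1hep liver and 1889 to 2304 in wild type.

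Other genes of steroid metabolism were counted by the brightest probe of each gene, among which 12.6% passed, 6.57% lower and 6.04% higher. Of 91 genes on 9 lists, 82 had a probe and 69 were tested, with 5 higher, 20 lower and 44 that did not pass. Their median log2 ratio was -0.11, beside 0.01 for all genes tested. The adjusted p-values below are those of limma with Benjamini-Hochberg adjustment over all probes. The count of 25 depends on the signal that is used. With Agilent's processed signals, from which the authors' deposited table is built, 4 genes of these lists passed, and of the 25 only Rdh16f2, Rdh10 and Serpina6 were still among them. Of the 25, 13 still passed when arrays were centred on their median in place of loess, and 16 passed whichever mouse was left out.

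Genes related to Hsd17b6 fell in 6 of 11 cases, with 1 that rose, 4 that did not pass and a median of -0.26. Rdh16f2 read -2.02, -1.64, -1.67, -1.32 and -1.39 in mice 1 to 5 and -1.29 on the dye-swapped array (estimate -1.44, SE 0.12, adjusted p = 0.000368), and its second probe gave -1.33. Rdh16, a retinol and androgen dehydrogenase, was between -1.94 and -1.38 on 5 arrays but at -0.18 in mouse 5 (estimate -1.32, SE 0.26, adjusted p = 0.0158). Rdh11, a retinal reductase, also had mouse 5 apart, at -0.11 against -1.43 to -0.66 (estimate -0.79, SE 0.20, adjusted p = 0.042). Sdr9c7 (-0.47), Rdh9 (-0.45) and Rdh7 (-0.26) were the other genes that fell, Rdh7 not without mouse 1, 3, 4 or 5 (adjusted p up to 0.074). Rdh10, which starts the synthesis of retinoic acid, rose by 0.52 (SE 0.08, adjusted p = 0.00631). The call of Rdh11 was lost without mouse 1 (adjusted p = 0.0569) or mouse 4 (0.0653). An intensity trend with robust variance in limma ended the calls of Rdh16 and Rdh11 (adjusted p = 0.169 and 0.215).

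Of 6 further 17β-hydroxysteroid dehydrogenases tested, 3 fell and none rose, with a median of -0.32. They were Hsd17b10, a mitochondrial enzyme (-0.40, SE 0.09, adjusted p = 0.0243), Hsd17b12, an enzyme of fatty acid elongation (-0.39, SE 0.08, adjusted p = 0.0133), and Hsd17b7 of cholesterol synthesis (-0.33, SE 0.08, adjusted p = 0.0424 and 0.0649 without mouse 4). With median centring 0 of these 3 calls remained. The second probe of Hsd17b7 gave -0.26 and did not pass (adjusted p = 0.0578). Hsd17b11, the closest relative and neighbour of Hsd17b13, was at -0.09 (SE 0.10, adjusted p = 0.62). Of 3 further 3β-hydroxysteroid dehydrogenases tested, Hsd3b7 of bile acid synthesis fell, with -0.68, -1.15, -1.14, -0.47 and -0.67 in mice 1 to 5 and -0.71 on the dye-swapped array (estimate -0.72, SE 0.11, adjusted p = 0.0056). Hsd3b6 (-0.040, SE 0.12) and Nsdhl (-0.095, SE 0.12) did not pass. Hsd11b2, the enzyme opposed to Hsd11b1, was not tested because it was detected on 1 of 6 arrays in each channel.

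The fitted estimates of the members' partners were near 0. H6pd, which supplies the reduced cofactor that Hsd11b1 uses, was at 0.10 (SE 0.07, adjusted p = 0.471), and the glucose 6-phosphate carrier Slc37a4 at 0.10 (SE 0.10, adjusted p = 0.612). Of 5 other steroid reductases 0 passed, with Tecr at -0.07 and Cbr1 at 0.08, and Srd5a3 was at -0.11 (SE 0.08). The estimate of Tecr joins opposed values, since the mice averaged -0.42 ± 0.11 (SD, n = 4) and the dye-swapped array read 0.28. Of 5 other Akr1c genes 0 passed, with Akr1c13 at 0.07 and Akr1c19 at 0.09. In these 3 lists the adjusted p ran from 0.0575 (Akr1c14, log2 -0.40) to 0.945 (Cbr3).

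Among 13 steroid hydroxylases and their electron donors 3 rose, 2 fell and 8 did not pass. The donors of mitochondrial cytochromes rose, namely Fdx1 (0.51, SE 0.09, adjusted p = 0.0114) and Fdxr (0.29, SE 0.07, adjusted p = 0.0347, and 0.0536 without mouse 4). Cyp7b1, which hydroxylates oxysterols and dehydroepiandrosterone, read -0.23 in mouse 1 and -1.32 to -0.94 in the other mice (estimate -0.76, SE 0.18, adjusted p = 0.0283, and 0.0549 without mouse 5). Of the testosterone hydroxylases Cyp3a11 fell (-0.48, SE 0.09, adjusted p = 0.0139) and Cyp3a25 rose (0.43, SE 0.10, adjusted p = 0.0264). Conjugation genes numbered 13, of which 4 fell, 1 rose and 8 did not pass. Ugt3a1 (-0.86, SE 0.13, adjusted p = 0.0055), Ugt3a2 (-0.53), Ugt2b35 (-0.43) and Ugt2b38 (-0.39) fell and Ugt2a3 (0.45, SE 0.09, adjusted p = 0.0187) rose. Ugt3a2 did not pass without mouse 1, 3 or 4 (adjusted p up to 0.063), nor Ugt2b38 without mouse 3, 4 or 5 (up to 0.066). By its second probe Ugt2b35 did not pass (-0.29, adjusted p = 0.0586), while Ugt3a2 did (-0.53, adjusted p = 0.0341). With median centring 2 of the 5 conjugation calls remained, those of Ugt3a1 and Ugt2a3. Cyp7b1 and Ugt3a2 were lost with the trended and robust variance as well (adjusted p = 0.15 and 0.114).

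Receptors and plasma carriers of steroids fell in 4 of 11 cases and rose in none. Serpina6, the plasma globulin that carries corticosterone, read -1.14, -1.21, -1.24, -1.28 and -0.71 in mice 1 to 5 and -0.89 on the dye-swapped array (estimate -0.99, SE 0.10, adjusted p = 0.00101), and its second probe gave -1.12. The xenobiotic and steroid sensors Nr1i3 (-0.65, SE 0.12, adjusted p = 0.0124) and Nr1i2 (-0.38, SE 0.10, adjusted p = 0.0498) fell. Leaving out mouse 2, 3 or 5 ended the call of Nr1i2 (adjusted p of at most 0.0723). The glucocorticoid receptor Nr3c1 was at 0.16 (SE 0.06, adjusted p = 0.154) and the oestrogen receptor Esr1 at -0.08 (SE 0.10, adjusted p = 0.668).

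Genes that the glucocorticoid receptor is known to induce are listed because Hsd11b1 makes its ligand. Of 10 tested 5 rose, none fell and 5 did not pass, with a median of 0.35. Pck1, a rate-limiting enzyme of glucose synthesis, read 1.63, 1.25, 1.18, 1.11 and 0.85 in mice 1 to 5 and 1.17 on the dye-swapped array (estimate 1.19, SE 0.12, adjusted p = 0.000958). The others were the serine dehydratase Sds (0.90, SE 0.12, adjusted p = 0.00314), the transcription factor Zbtb16 (0.74, SE 0.17, adjusted p = 0.0287), the phosphatase Dusp1 (0.72, SE 0.10, adjusted p = 0.00368) and the receptor chaperone Fkbp5 (0.31, SE 0.06, adjusted p = 0.0169). Tsc22d3, an often used reporter of the receptor, ran from -0.20 in mouse 4 to 0.91 in mouse 1 and did not pass (estimate 0.33, SE 0.17, adjusted p = 0.284). Pck1, Sds and Dusp1 passed with processed signals too, Zbtb16 and Fkbp5 not, and Zbtb16 was also lost with the trended and robust variance (adjusted p = 0.129).

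**Figure D4:**
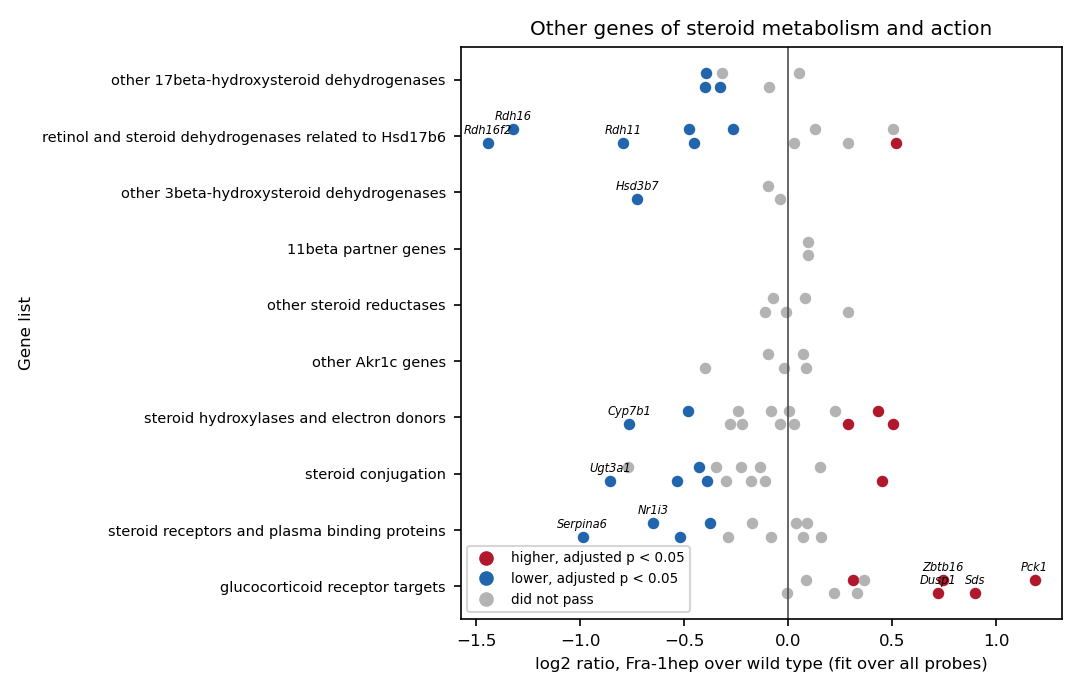
Fitted log2 ratio of Fra-1hep over wild type (horizontal) for each tested gene of 10 lists (vertical), with red for higher and blue for lower at an adjusted p under 0.05 in limma's fit and grey for genes that did not pass. The relatives of Hsd17b6 reach furthest to the left (Rdh16f2 at -1.44), and the glucocorticoid receptor targets reach furthest to the right (Pck1 at 1.19).

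Lists of genes that differ between the sexes were included because Hsd3b5 is one of them. By the brightest probe of each gene, 7 of 16 male-biased genes tested fell and 2 rose (Gstp1, 0.78, and C6, 0.46). Mup20 and Serpina1e did not pass by that probe (0.034 and -0.33). Their second probes gave -0.83 and -1.06 (adjusted p = 0.00265 and 0.0017, limma). By the brightest probe the steroid and anion carrier Slco1a1 (-2.73, SE 0.32) and the fatty acid elongase Elovl3 (-2.02, SE 0.15) had the lowest ratios. The pheromone carrier Mup3 (-1.68, SE 0.19) and Susd4 (-0.83, SE 0.10) followed. The adjusted p-values of these 4 were at most 0.00165 (limma). Slco1a1 no longer passed when limma's variance was fitted with an intensity trend and robustly (adjusted p = 0.0675). Of 15 female-biased genes on the array only 6 were bright enough to be tested. Of these 3 fell, namely Cyp2b9 (-0.61, SE 0.09), Cyp3a16 (-0.55, SE 0.10) and Abcd2 (-0.51, SE 0.12), and Fmo2 rose (0.51, SE 0.08). Abcd2 did not pass without mouse 1 (adjusted p = 0.0512) and was detected in Fra-1hep liver on 1 of 6 arrays, and Cyp2b9 on 3. For both the processed signals gave a lower ratio (-2.40 and -1.89). Of 13 genes of the growth hormone to STAT5 axis 3 fell, Igfals (-0.48), Igf1 (-0.44) and Ghr (-0.41), none rose and 10 did not pass. The median of the list was 0.005, and genes that did not pass had an SD between mice of up to 1.94. Ghr was lost when mouse 4 or mouse 5 was left out (adjusted p = 0.0581 and 0.065), and with the trended and robust variance (0.0504). Processed signals kept 7 of the 9 male-biased calls, 0 of the 4 female-biased ones and 1 of the 3 of the growth hormone axis (Igf1). Median centring kept 8 of the 9, 3 of the 4 and 0 of the 3, with Igf1 at an adjusted p of 0.0556 (limma). The Y-linked genes Ddx3y (0.15, SE 0.06, adjusted p = 0.152) and Eif2s3y (0.018, SE 0.093) were detected in both colours on every array, and 2 probes of Xist were detected on at most 2 arrays for Fra-1hep RNA and on 0 for wild-type RNA.

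The genes next to the members were looked at after the members' values were known, as the 6 protein-coding genes on each side in RefSeq's order on GRCm38.p6. Over all members 71 such genes were tested, of which 6 rose and 11 fell, and 4 of these 17 also passed with processed signals (Rdh16f2, Osgin1 and Slc10a6 among them). On the side of Hsd17b6 that holds the retinol dehydrogenases, 5 of 6 genes fell and none rose (Sdr9c7, Rdh7, Rdh16f2, Rdh16 and Rdh9), and Rdh19 did not pass (0.13, SE 0.06, adjusted p = 0.218). With processed signals Rdh16f2 still passed, while Sdr9c7, Rdh7, Rdh16 and Rdh9 did not. These neighbours are also counted above among the relatives of Hsd17b6, and cross-hybridisation between their probes was not tested. On the other side of Hsd17b6 1 of 6 fell, the primase subunit Prim1 (-0.29, SE 0.07, adjusted p = 0.0311, and 0.0538 without mouse 1). Around Hsd3b5, Hsd3b2 and Hsd3b3, which are adjacent, 0 of the tested genes that are not members passed. Hsd3b6 was at -0.040, and the 4 tested around Hsd3b5 ran from -0.46 to 0.061. Around Akr1c6 0 of 10 passed. Near Hsd17b13 the bile acid and steroid sulfate carrier Slc10a6 (0.83, and 3.08 with processed signals), Sparcl1 (0.74), Ptpn13 (0.46) and Aff1 (0.35) rose while Hsd17b13 itself was lower by its bright probe. The gene directly beside Hsd11b1, G0s2, an inhibitor of fat breakdown, fell by 0.88 (SE 0.14, adjusted p = 0.00625). Of the 9 tested near Hsd11b1 2 rose, Cd34 (0.47) among them. Near Hsd17b2 the genes Osgin1 (-0.46), Sdr42e1 (-0.35) and Plcg2 (-0.29) fell, Plcg2 not without mouse 4 (adjusted p = 0.0526). Near Srd5a2 Lclat1 fell (-0.24), though not without mouse 4 or mouse 5 (adjusted p up to 0.0674), and near Srd5a1 0 of 5 passed.

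**Figure D5:**
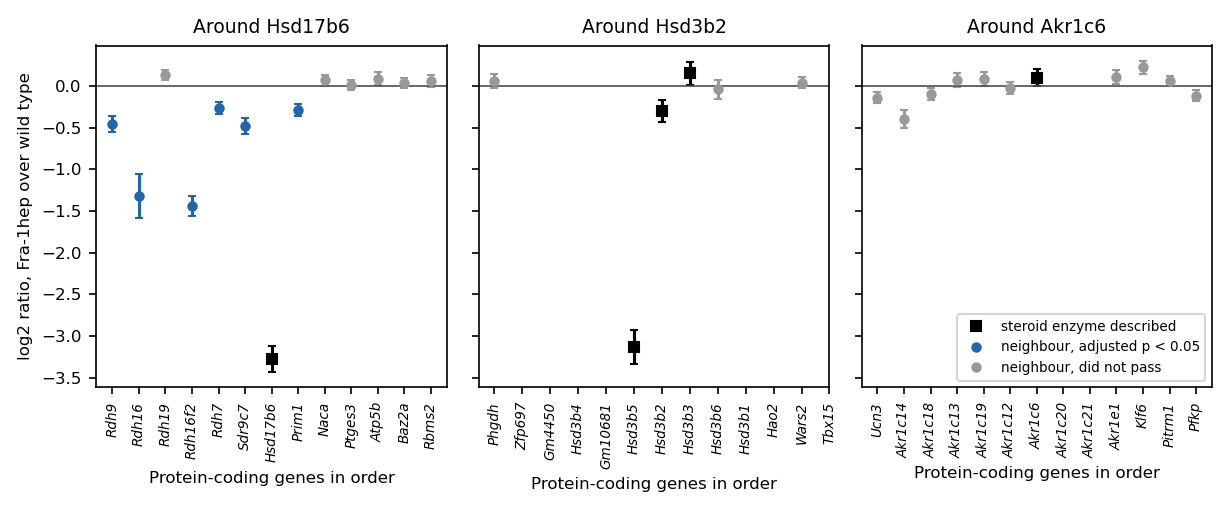
Fitted log2 ratio ± SE (vertical) of the protein-coding genes around Hsd17b6, Hsd3b2 and Akr1c6 in their genome order (horizontal, not to scale of distance), with black squares for the genes described here, blue for neighbours with an adjusted p under 0.05 and grey for those that did not pass. Genes with no point were not tested. The low ratio of Hsd17b6 sits at the end of a row of retinol dehydrogenase genes, of which 5 of 6 were lower and Rdh19 was not (0.13). Around Hsd3b2 the ratio of Hsd3b5 (-3.14) stands beside tested genes between -0.30 and 0.15.

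Likeness to the genes with the lowest ratios was measured as the root mean square difference of the log2 ratio over the 6 arrays, among 12236 genes. The nearest to Hsd17b6 were Dmbt1 (0.29), a secreted mucosal scavenger protein, Cfd (0.33), which encodes complement factor D, and Cyp4a31 (0.56). Those nearest to Hsd3b5 were Dmbt1 (0.40) and the fatty acid hydroxylases Cyp4a31 (0.44) and Cyp4a10 (0.46). Cyp4a10 ran from -3.96 to -1.69, with mouse 5 the highest. Dmbt1 ran from -3.23 to -2.94 in the mice, with mice 1 and 5 level at -2.94, and was at -3.65 on the dye-swapped array. The Fra-1hep signal of Cfd exceeded background clearly on 0 of 6 arrays, so its ratio is a bound, at least 8.89-fold lower.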

How the data were processed

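Liver RNA was measured on 6 Agilent 2-colour mouse arrays (62976 spots each). RNA with an integrity score above 7.8 was used and 100 ng were labelled, per the labels' protocols. The authors deposited scanner output made with Agilent Feature Extraction, version 10.7 by the submitters' processing notes and version 10.7.3.1 by the headers. Its columns, per the file headers, hold red and green median and background intensity, processed intensity, and a log10 ratio of red over green. The deposited series table holds log2 ratios of the processed signals, Fra-1hep over wild type on all arrays: it matched the scanner ratios (median absolute difference at most 4.33e-07), with column medians of -0.18 to 0.061. The array design is annotated on mm9, so no gene coordinates of the files are printed. RefSeq's table gave 1 symbol to 26056 of the 55681 probes.

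Median signals were background-corrected (normexp, offset 50) and normalised by loess within arrays (limma 3.58.1, R 4.3.3). Control spots had weight 0, outlier spots were dropped, and replicate spots were averaged. A probe was tested if detected (well above background) for Fra-1hep RNA on 3 or more of the 5 mouse arrays or for wild-type RNA on 3 or more of all 6. That kept 30110 probes, of which 5 lacked the dye-swapped value and got no estimate. With mice 2 and 3 averaged, limma's lmFit and eBayes were run on the log2 dye ratios with coefficients for genotype and dye (3 residual degrees of freedom, 5.15 from the prior). The estimate is thus the mean of the mouse mean and the turned pool, and the dye-swapped array's own error cannot be estimated. Tests were 2-sided against 0. P-values were adjusted by Benjamini-Hochberg over all probes. Whether the mice were littermates is not given, so p-values measure the spread between these samples. The script was tested on simulated data.

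The members and all lists were chosen with earlier results of these data known. Named were all probes of the members, up to 4 passing genes per list and direction (in lists with none, the 2 brightest genes), the 3 genes most like Hsd17b6 and like Hsd3b5, Xist and Y genes. Further genes named beside them, among them all neighbours, were chosen after their values were seen. A few genes that enter the counts are not reported here by name. Alternatives changed the background correction, the scaling, the filter, the dye term and the samples used. Promoters came from RefSeq (GRCm38.p6).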

Additional observations from a re-analysis of the deposited data

Results flagged for a closer look

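Of 60 values looked at, 1 stood apart among the 4 counted Fra-1hep samples. Zbtb16, a glucocorticoid receptor target, had a log2 ratio of 1.53 in mouse 1, while the other samples lay between 0.53 and 0.68. The gap to the nearest sample was 0.85 of the whole range, above Dixon's critical value for 4 samples. Chance alone gives about 1 such value in 20.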

How the results depend on the processing

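The probes past the threshold numbered 3483, and 2913 to 3304 with 1 mouse left out at a time. They numbered 1626 with Agilent's processed signals, 1624 with the authors' deposited table, 5898 without the dye term and 7585 with the mouse arrays only. With median centring in place of loess 3950 passed, of which 74.3% were higher, against 47.7% with loess, and the median log2 ratio of all probes was 0.08 in place of 0.01. The other steroid genes past it numbered 25, and 4 with the processed signals, 4 with the deposited table and 18 to 25 with 1 mouse left out. The cause of these differences was not tested. Of the members' values 206 moved by less than 1 SD between mice and 8 by more. The latter were Hsd17b6 (-3.93) and Srd5a2 (1.53) with processed signals and with the deposited table, Srd5a2 (1.14) with a normexp offset of 16, Hsd17b2 (-1.29) and Akr1c6 (0.39) with the mouse arrays only, and Hsd17b13 (-0.35) with median centring. Over all alternatives Hsd17b6 ran from -3.93 to -3.15, Hsd3b5 from -3.28 to -2.98 and Srd5a2 from 0.86 to 1.53, and of the 12 probes the sign changed for the second Hsd17b13 probe, whose values lay between -0.0012 and 0.077. Of the values of other named genes 746 kept direction and side of the threshold, 112 were no longer past it, 4 were newly past it and 0 turned. Each ratio pairs both channels of an array. The wild-type side is the same pool throughout, so Fra-1hep mice could not be paired with individual wild-type mice.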
